A study of Danio rerio with 8 samples.

Results

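The 9 genes described here are the zebrafish genes of the glucocorticoid receptor, of its regulation and of its textbook targets, together with enzymes of amino acid breakdown and of glucose synthesis. They were chosen by symbol, with earlier results of these data known, namely nr3c1, hsd11b2, fkbp5, tsc22d3, klf9, rasd1, tat, tdo2b and pck1. All 9 were present among the 20409 genes of the table, and all 9 passed the filter on low values. RNA of whole Danio rerio larvae at 4 days post fertilization was sequenced, with 30 larvae pooled per library. The mutant group (-/-) consisted of larvae homozygous for smh, a mutation of ccdc103 that paralyses motile cilia, picked by their downward curled tail. The control group consisted of their siblings, a mixture of wild-type (wt) and heterozygous (+/-) larvae, so that controls also carried the mutant allele in part. Neither group was treated. Each of 4 clutches gave 1 mutant and 1 control library, which made 4 against 4.

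Cortisol, the stress hormone of fish, acts through the glucocorticoid receptor encoded by nr3c1, which enters the nucleus when bound and switches target genes on or off. Some targets feed back on the pathway or dampen inflammation in most tissues, among them fkbp5, tsc22d3 and klf9. In the liver of mammals the hormone also raises enzymes that turn amino acids and other substrates into glucose, for which tat, the tryptophan dioxygenase genes and pck1 are the classical examples. Larvae at this age still live on yolk.

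Values are given as log2 CPM (the logarithm, to base 2, of reads relative to the size of the library), a unit inferred from the numbers. The authors had made the libraries equal in distribution, and each sums to between 997999 and 998006 CPM, so the depth per library is unknown. Gene length was not used, so levels are compared between libraries and not between genes. Where a gene is called abundant or the most abundant of a list, only its log2 CPM is meant, without regard to gene length. Whole larvae were used, and fewer cells of a type cannot be told apart from less RNA per cell. The main test was limma without a term for clutch, with Benjamini-Hochberg adjustment over all 20154 tested genes and a threshold of 0.05. A second fit of the same test took clutch as a block, because the labels state that the replicate number is the clutch, and its values follow those of the first. None of the 9 genes lies on chromosome 3, which holds ccdc103 in the RefSeq annotation of GRCz12tu.

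The amino acid and glucose enzyme genes tat, tdo2b and pck1 and the GTPase gene rasd1 passed as lower in mutants within clutches. The receptor gene nr3c1, hsd11b2 and the targets fkbp5, tsc22d3 and klf9 did not pass, although tsc22d3 and klf9 were also lower in 4 of 4 clutches. Without the clutch term 0 of the 9 genes passed, and 2 of them, tat and rasd1, had an unadjusted limma p under 0.05. In that fit 0.0744% of all tested genes passed the adjusted threshold and 3.41% had an unadjusted p under 0.05. With clutch as a block 4 of the 9 passed, namely tat, rasd1, tdo2b and pck1, all lower in mutants. The share of all tested genes called lower in the blocked fit was 1.39%. Differences were below 0 for 8 of the 9 genes, with a median of -0.19 log2 units, beside a median of 0.00 and 48.9% below 0 over all tested genes. In fits without a clutch term the median of the 9 was -0.34 when the control of clutch 1 was left out. It was -0.11 when the control of clutch 4 was left out and -0.12 when the mutant of clutch 1 was. Leaving out 1 library in this way leaves its clutch mate unpaired, so differences between clutches enter these medians. Of the 9, 6 were lower in mutants in 4 of 4 clutches, which 10.9% of all tested genes were. Because the 9 genes were chosen with earlier results of these data known, their excess over these shares is no independent result.

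**Figure D1:**
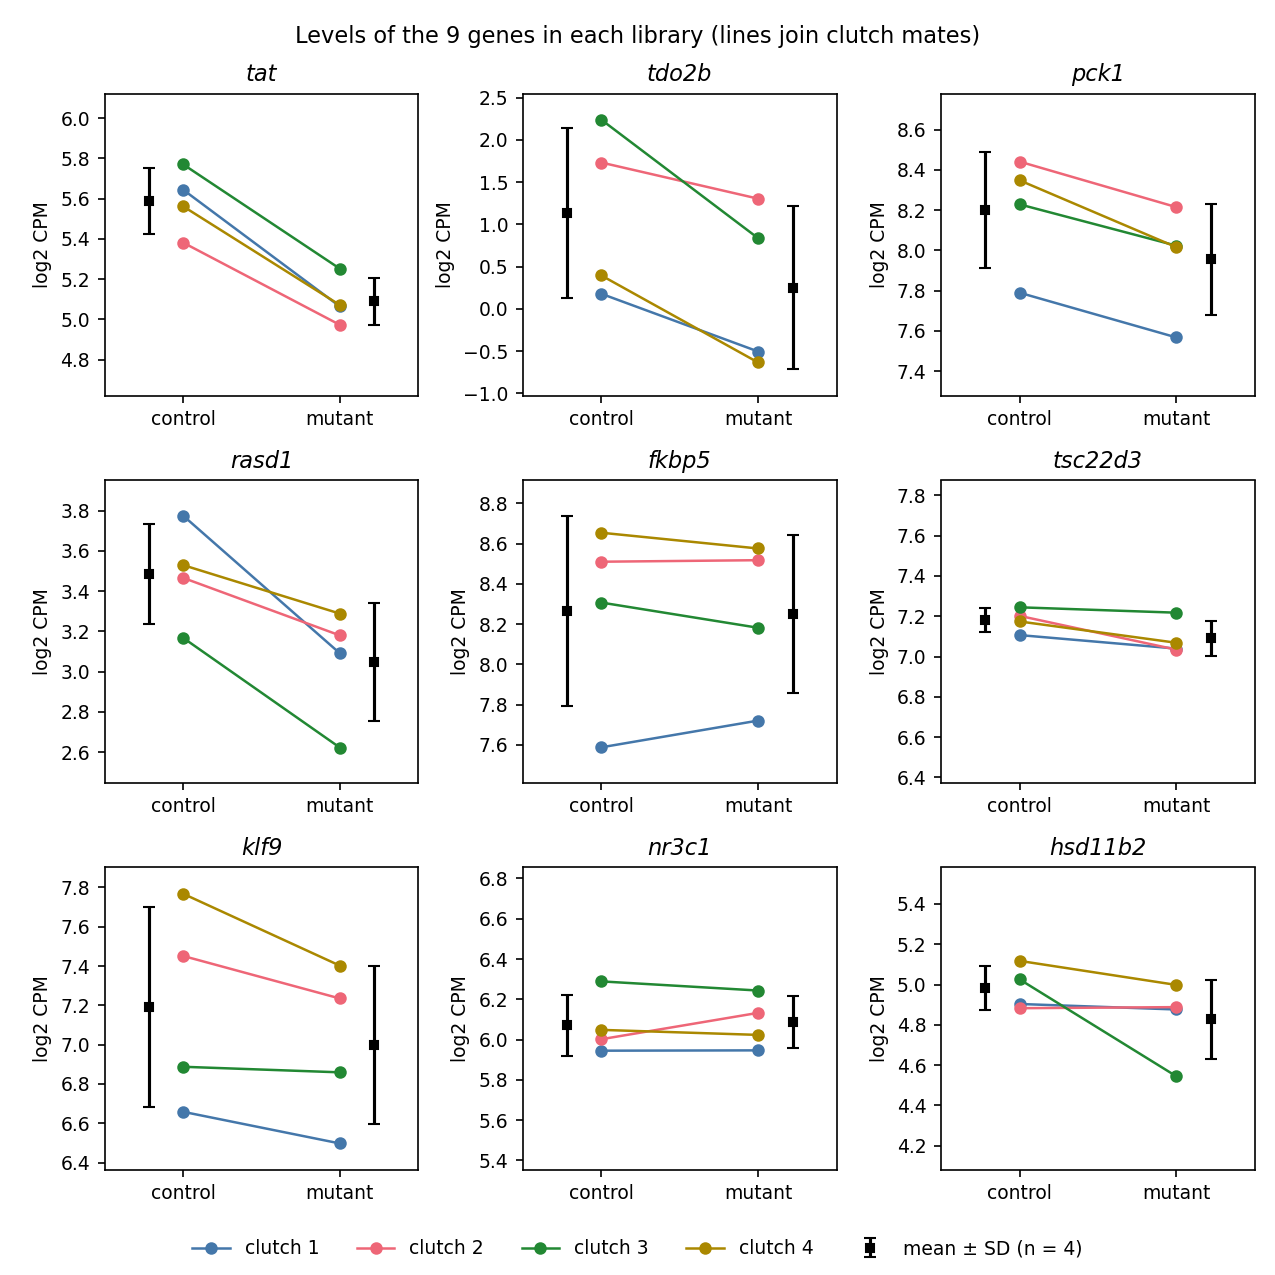
Level of each of the 9 genes in log2 CPM in every library, with control and mutant libraries of a clutch joined by a line in the colour of that clutch and black squares with bars for the group mean ± SD (n = 4). The 4 mutants lie below the 4 controls for tat, while for fkbp5 and klf9 the clutches lie farther apart than the genotypes.

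The gene tat (NCBI gene ID 561410, chromosome 18) encodes tyrosine aminotransferase, the enzyme that starts the breakdown of tyrosine. Its control libraries, in the order of clutches 1 to 4, held 5.64, 5.38, 5.77 and 5.56 log2 CPM. The mutant libraries of the same clutches had 5.06, 4.97, 5.25 and 5.07 log2 CPM. All 4 mutants lay below all 4 controls, a separation that 1.05% of all tested genes showed in this direction. The mean went from 5.59 ± 0.16 to 5.09 ± 0.12 log2 CPM (SD, n = 4), which is 1.41-fold lower. The clutch differences were -0.58, -0.41, -0.52 and -0.49 log2 units, with an SD of 0.07 between clutches. The difference of -0.50 log2 units had an SE of 0.11 and a limma adjusted p of 0.289 without the clutch term. In the blocked fit the SE was 0.06 and the limma adjusted p was 0.00021. The exact two-sided permutation test, which divided the 8 libraries without regard to clutch, gave p = 0.0286. This is the smallest value that 4 against 4 libraries allow. Any gene whose groups do not overlap reaches it, so it adds nothing to that separation. The blocked call held without any 1 clutch (limma adjusted p up to 0.00266) and was lost without trend and robust moderation of the variances (adjusted p = 0.0695). By blocked p, tat stood at rank 37 of the 20154 tested genes.

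The gene tdo2b (gene ID 334082, chromosome 11) encodes a tryptophan dioxygenase, the enzyme that opens the kynurenine route of tryptophan breakdown. It was expressed at a low level, and its control libraries, in the order of clutches 1 to 4, held 0.18, 1.73, 2.24 and 0.40 log2 CPM. The mutants had -0.50, 1.304, 0.84 and -0.63 log2 CPM. Clutches 2 and 3 were high and clutches 1 and 4 low in both genotypes, so that the groups overlapped although each mutant lay below its own sibling library. The mean was 1.14 ± 1.01 in controls and 0.25 ± 0.97 log2 CPM in mutants (SD, n = 4), or 1.85-fold lower. The clutch differences ran from -0.43 in clutch 2 to -1.40 in clutch 3. The difference did not pass without the clutch term (SE 0.57 log2 units, limma adjusted p = 1) and passed narrowly with it (SE 0.22, limma adjusted p = 0.0444). The blocked call was lost without clutch 2, 3 or 4 (limma adjusted p = 0.107, 0.234 and 0.155), and without trend and robust moderation (0.131). The blocked interval spanned a fall of 1.33-fold to 2.56-fold. Its paralog tdo2a, named after its values were seen, had -0.16 log2 units (blocked limma adjusted p = 0.355) and was lower in 3 of 4 clutches.

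The gene pck1 (gene ID 378727, chromosome 6) encodes cytosolic phosphoenolpyruvate carboxykinase, which commits substrates to glucose synthesis. Its level in the control libraries of clutches 1, 2, 3 and 4 was 7.79, 8.44, 8.23 and 8.35 log2 CPM. Mutants had 7.57, 8.21, 8.02 and 8.02 log2 CPM. Each mutant lay slightly below its sibling library, and both libraries of clutch 1 were the lowest of their group. The clutch differences of -0.22, -0.23, -0.21 and -0.33 log2 units were close to each other, with an SD of 0.06. On average pck1 was 1.19-fold lower in mutants, from 8.20 ± 0.29 to 7.96 ± 0.27 log2 CPM (SD, n = 4). The limma adjusted p was 1 without the clutch term and 0.0214 in the blocked fit (SE 0.16 and 0.05 log2 units). The blocked call was lost without clutch 2 or 4 (limma adjusted p = 0.0918 and 0.211), and without trend and robust moderation (0.228). The mitochondrial paralog pck2, also named after its values were seen, had -0.08 log2 units (blocked limma adjusted p = 0.657).

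The gene rasd1 (gene ID 393504, chromosome 12) encodes a small Ras-like GTPase that was first found in mouse cells as a transcript induced by the synthetic glucocorticoid dexamethasone. From clutch 1 to clutch 4, control libraries held 3.77, 3.47, 3.17 and 3.53 log2 CPM. Mutants had 3.09, 3.18, 2.62 and 3.29 log2 CPM. The groups overlapped through the control of clutch 3, which lay below the mutants of clutches 2 and 4. The mean went from 3.48 ± 0.25 to 3.05 ± 0.29 log2 CPM (SD, n = 4), which is 1.36-fold lower. The clutch differences were larger in clutches 1 and 3 (-0.68 and -0.54 log2 units) than in clutches 2 and 4 (-0.29 and -0.24 log2 units). The limma adjusted p was 1 without the clutch term (unadjusted p = 0.0261) and 0.0265 in the blocked fit (SE 0.17 and 0.10 log2 units). The blocked call was lost without any 1 of clutches 1 to 4 (limma adjusted p = 0.128, 0.0718, 0.0842 and 0.0576), and without trend and robust moderation (0.172). The exact two-sided permutation p was 0.0857. By the same test p was 0.286 for tdo2b and 0.314 for pck1, and it ran from 0.143 to 0.971 for the genes that did not pass. Among its relatives rasd3, named after its values were seen, averaged 0.48 log2 CPM over the controls and -0.47 over the mutants, with a blocked limma adjusted p of 0.134. The mutants of rasd3 ran from -1.71 in clutch 3 to 0.23 log2 CPM in clutch 1. In contrast, rasd4 was higher by 0.18 log2 units and lower in 0 of 4 clutches (blocked limma adjusted p = 0.502). Of the 9 relatives and partners of rasd1, 5 were below 0.

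The gene fkbp5 (gene ID 368924, chromosome 6), a co-chaperone of the receptor and one of its most responsive targets in mammals, did not pass in either fit. The control libraries, in the order of clutches 1 to 4, held 7.59, 8.51, 8.31 and 8.65 log2 CPM. Mutants had 7.72, 8.52, 8.18 and 8.58 log2 CPM. Values followed the clutch closely, with clutch 1 low in both genotypes, and mutants were higher in clutches 1 and 2 and lower in clutches 3 and 4. The difference of -0.02 log2 units had a blocked 95% confidence interval of -0.14 to 0.11 (limma adjusted p = 0.939), which lies above the whole blocked interval of tat, -0.63 to -0.37. That interval comparison is a description, and the difference between the genes was not tested.

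For tsc22d3 (gene ID 393541, chromosome 14), a leucine zipper gene known in mammals as GILZ, controls ran from 7.11 to 7.24 and mutants from 7.03 to 7.22 log2 CPM. It was lower in mutants in 4 of 4 clutches, but by only 0.03 to 0.17 log2 units, and its mean difference was -0.09 log2 units with a blocked 95% confidence interval of -0.21 to 0.03 (limma adjusted p = 0.521).

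For klf9 (gene ID 565869, chromosome 5), a Krüppel-like transcription factor gene, the control libraries, in the same order, held 6.66, 7.45, 6.89 and 7.77 log2 CPM. Mutants had 6.50, 7.23, 6.86 and 7.40 log2 CPM. Each mutant lay below its sibling library, while the clutches differed by far more than the genotypes. The difference of -0.19 log2 units did not pass in the blocked fit (95% confidence interval -0.33 to -0.06, unadjusted p = 0.00705, limma adjusted p = 0.149). Without a clutch term it was -0.37, -0.11, -0.29 and -0.00076 log2 units when the control of clutch 1, 2, 3 or 4 was left out, and -0.026 and -0.33 when the mutant of clutch 1 or 4 was. Unadjusted blocked p under 0.05 was seen for 5 of the 9 genes and for 13.5% of all tested genes.

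The receptor gene nr3c1 (gene ID 553740, chromosome 14) ran from 5.95 to 6.29 log2 CPM in controls and from 5.95 to 6.24 in mutants. Its means of 6.07 ± 0.15 and 6.09 ± 0.13 log2 CPM (SD, n = 4) differed by 0.02 log2 units, with a blocked 95% confidence interval of -0.11 to 0.14 (limma adjusted p = 0.942). For hsd11b2 (gene ID 334098, chromosome 7), whose enzyme converts cortisol to inactive cortisone, controls ran from 4.88 to 5.12 and mutants from 4.54 to 5.00 log2 CPM. The mutant of clutch 3 was the lowest of the 8 libraries, at -0.48 log2 units from its sibling library, whereas clutch 2 differed by 0.01. The mean difference of -0.16 log2 units did not pass (blocked limma adjusted p = 0.418). Without the mutant of clutch 3, in the fit without a clutch term, it was -0.062.

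**Figure D2:**
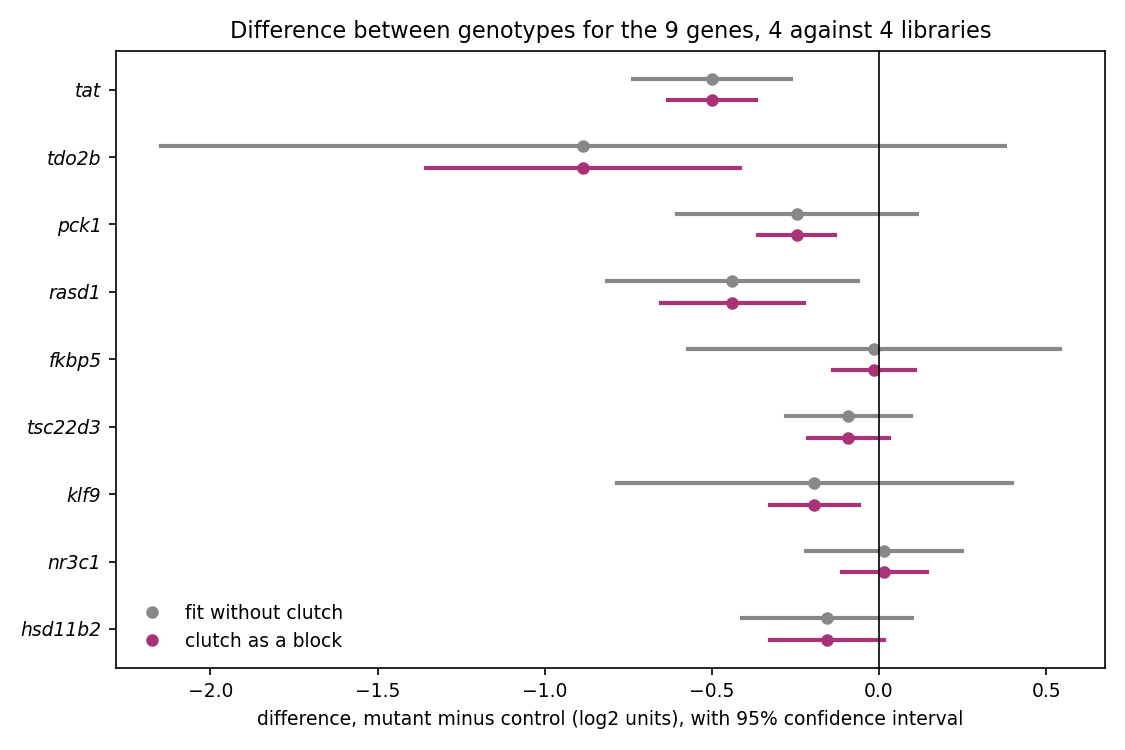
Difference between mutant and control (log2 units, points) with its 95% confidence interval (lines) for each of the 9 genes, from limma without a clutch term in grey and with clutch as a block in purple (4 against 4 libraries). Blocked intervals lie below 0 for tat, tdo2b, pck1, rasd1 and klf9, of which klf9 did not pass after adjustment, and they include 0 for fkbp5, tsc22d3, nr3c1 and hsd11b2.

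The span of the 4 clutch means was larger than the difference between genotypes for each of the 9 genes except tat. A span over 4 means tends to exceed a difference between group means even where clutches do not differ. The sizes are therefore unlike measures, given here as a description. Control and mutant values correlated over the 4 clutches by r of 0.01 for hsd11b2 up to 0.98 for fkbp5. The means of the 4 clutches spanned 1.70 log2 units for tdo2b, 1.01 for klf9 and 0.96 for fkbp5. A smaller span was found for 99.33%, 94.95% and 94.18% of all tested genes, whose median span was 0.40 log2 units, beside a median size of 0.087 for the difference between genotypes. For tsc22d3, hsd11b2 and nr3c1 the share of tested genes with a smaller span was 8.38%, 27.3% and 36.1%. For tat the span between clutches was 0.33 log2 units, and it was the 1 gene of the 9 whose difference between genotypes was larger than its span between clutches. For rasd1 the span was 0.54 and for pck1 0.65 log2 units, beside differences between genotypes of -0.44 and -0.25.

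The genes did not share 1 order of clutches. Clutch 1 was the lowest for fkbp5, klf9, pck1, nr3c1, tsc22d3 and tdo2b, whereas it was the highest for rasd1. Over the 8 libraries, with group means removed, fkbp5 correlated with klf9 by r = 0.92 and with pck1 by r = 0.93, and rasd1 correlated with tsc22d3 by r = -0.93. The correlation of tat with fkbp5 was -0.34 and with pck1 -0.34. These values describe 8 libraries that share 4 clutches, and no test was made.

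**Figure D3:**
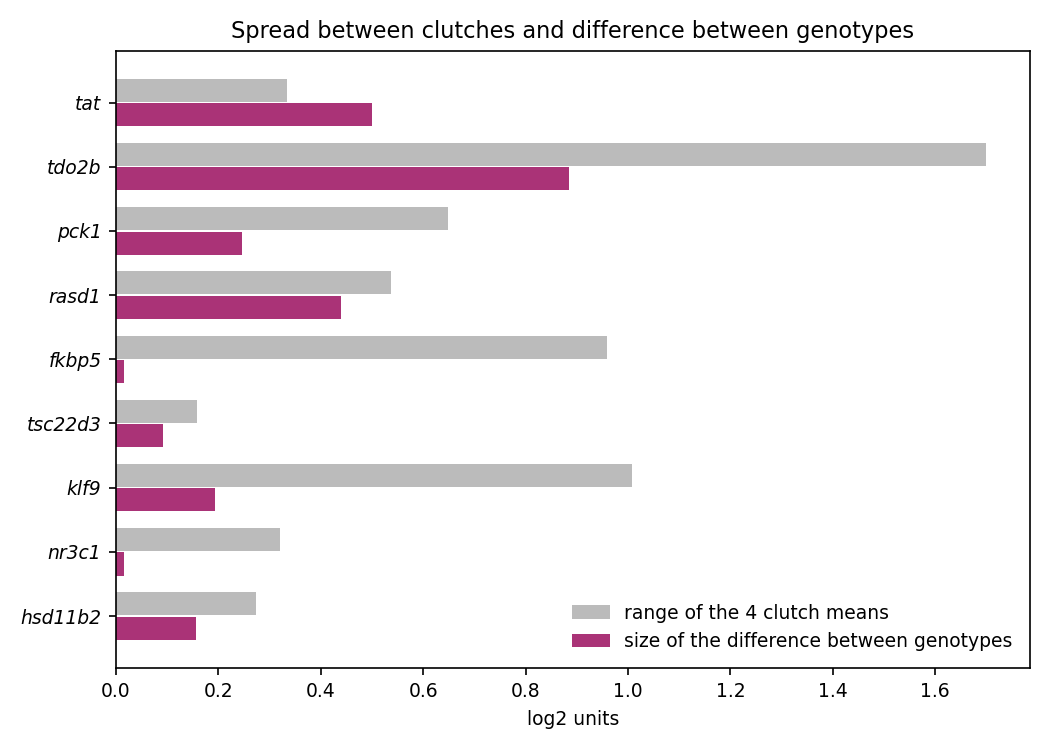
Range of the 4 clutch means (grey bars, log2 units, each mean over the mutant and the control library of a clutch) beside the size of the difference between genotypes (purple bars, log2 units) for each of the 9 genes. The purple bar is the longer one for tat (0.50 against 0.33), and the grey bar is the longer one for the other genes, most of all for fkbp5 (0.96 against 0.02). A range over 4 means tends to exceed a difference between group means even where clutches do not differ, so the bars are unlike measures.

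The genes whose levels over the 8 libraries were most like those of each gene, by Pearson r and among genes with a proper name, differed from gene to gene. For tat they were arg2 (r = 0.96), the gene of a mitochondrial arginase, myoz2a (r = 0.95), of a muscle protein, and selenoo1 (r = 0.94), and all 3 passed lower in mutants in the blocked fit (limma adjusted p = 0.00068, 0.000585 and 0.0123). Because r was taken with the difference between genotypes left in, likeness to tat favours genes that are lower in mutants, and these calls are no independent result. In arg2 the fall was 0.49 log2 units and in myoz2a 0.45. For tdo2b they were epdl2, adgrg4a and slc26a3.2 (r = 0.98, 0.98 and 0.97), of which epdl2 and slc26a3.2 passed with the block, by -0.53 and -0.50 log2 units (limma adjusted p = 0.00032 and 0.00224), to which the same limit applies.

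For klf9 the most like gene was nr1d2a (r = 0.99), which encodes a repressor of the circadian clock, ahead of cryba1a and pnp5a (r = 0.98 for each). For fkbp5 they were slc17a7b, map3k10 and grin2aa (r = 0.996, 0.99 and 0.99), among 761 named genes with r of at least 0.9, and for pck1 opn1mw1, ckmt2a and ip6k1 (r = 0.99, 0.99 and 0.98). None of the genes in these 3 sets passed in either limma fit. Named genes with r of at least 0.9 numbered 187 for pck1, 120 for tdo2b and 94 for klf9. They numbered 67 for nr3c1, 29 for tsc22d3, 19 for tat, 18 for rasd1 and 5 for hsd11b2. Where that number is large, the 3 genes given are only the top of many like ones. The most like genes of rasd1 were mrps11, sacm1la and trpv6 (r = 0.96, 0.94 and 0.93), those of nr3c1 zbtb4, wdsub1 and timp4.3 (r = 0.98, 0.97 and 0.97), those of tsc22d3 mccc1, wasa and kctd7 (r = 0.95 for each), and those of hsd11b2 ponzr2, rxfp2b and iscub (r = 0.97, 0.96 and 0.94).

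Of the other genes of the pathway, each list had at most 1 member called with clutch as a block. Without the clutch term 0 members of any list below passed. Of 33 measured further targets of the glucocorticoid receptor, 1 was called lower and 0 higher with clutch as a block, with 8 at an unadjusted blocked limma p under 0.05, 22 below 0 and a list median of -0.06 log2 units. Over all tested genes the blocked fit called 2.34%, with an unadjusted blocked limma p under 0.05 for 13.5%. Differences were below 0 for 48.9% of all tested genes, and 10.9% were lower in 4 of 4 clutches. Without the block an unadjusted limma p under 0.05 was seen for 3.41%. These shares stand beside the counts of each list that follows. The called target was the metallothionein gene mt2, whose protein binds zinc and copper. It ran from 5.73 to 6.84 in controls and from 4.89 to 5.76 log2 CPM in mutants, and its fall was 1.86-fold (blocked limma adjusted p = 7.72e-07, 0.611 without the block).

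Of 27 measured genes of the cortisol axis, of steroid synthesis and of receptor chaperones, 0 were called in either fit (limma, with unadjusted p under 0.05 for 3 in the unblocked and 7 in the blocked fit), and the median was -0.03 log2 units, with 16 below 0. Its most abundant member hsp90ab1, a chaperone of the receptor, differed by -0.01 log2 units, from 11.72 to 11.71 log2 CPM.

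Of 29 measured gluconeogenesis and glucose output genes, 0 were called in either fit (limma, with unadjusted p under 0.05 for 0 in the unblocked and 6 in the blocked fit), with a median of -0.07 log2 units, 21 below 0 and differences between -0.24 and 0.23. The most abundant member gapdh had 10.22 log2 CPM in controls and 10.32 in mutants. Among 30 hormones and regulators of gluconeogenesis the median was 0.00 log2 units, and 1 was called lower with the block (5 at an unadjusted blocked p under 0.05, and 15 below 0). The 1 call was 3.33% of the list, beside 2.34% of all tested genes, and is no result about the list as a whole. The called member was the insulin receptor substrate gene irs2a, which went from 4.42 ± 0.08 to 4.10 ± 0.10 log2 CPM (SD, n = 4), or 1.25-fold lower, in 4 of 4 clutches (blocked limma adjusted p = 0.0293). This call was lost without clutch 2, 3 or 4 (limma adjusted p up to 0.13).

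Of 21 measured genes of tyrosine and tryptophan breakdown other than tat and tdo2b, 1 was called lower with the block (7 at an unadjusted blocked p under 0.05). Differences were below 0 for 16 of the 21, with a median of -0.11 log2 units, and 7 were lower in 4 of 4 clutches. Of all tested genes 48.9% were below 0, 10.9% were lower in 4 of 4 clutches and 13.5% had an unadjusted blocked limma p under 0.05. The 1 call was 4.76% of the list, beside 2.34% of all tested genes, and is no result about the list as a whole. The called member was hpdb, the gene of a 4-hydroxyphenylpyruvate dioxygenase, the enzyme that acts on the product of tat. It was 1.24-fold lower, from 6.14 ± 0.21 to 5.83 ± 0.21 log2 CPM (SD, n = 4), in 4 of 4 clutches (blocked limma adjusted p = 0.00776), and the call was lost without clutch 4 (0.0764). Its paralog hpda was at 7.33 in controls and 7.47 log2 CPM in mutants.

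Of 31 other genes of amino acid breakdown and the urea cycle, 1 was called higher with the block (11 at an unadjusted blocked p under 0.05). Differences were below 0 for 25 of the 31, with a median of -0.09 log2 units, and 6 were lower in 4 of 4 clutches. The same shares of all tested genes were 48.9% below 0, 10.9% lower in 4 of 4 clutches and 13.5% at an unadjusted blocked limma p under 0.05. The 1 call was 3.23% of the list, beside 2.34% of all tested genes, and is no result about the list as a whole. The called member was the betaine homocysteine methyltransferase gene bhmt, which rose by 0.24 log2 units from 10.12 to 10.36 log2 CPM (blocked limma adjusted p = 0.0292). This call was lost without clutch 1, 3 or 4 (limma adjusted p up to 0.186). Of 9 relatives and partners of rasd1, 0 were called in either fit (limma, with unadjusted p under 0.05 for 1 in the unblocked and 3 in the blocked fit), 5 were below 0, and the most abundant, diras1a, had -0.11 log2 units.

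**Figure D4:**
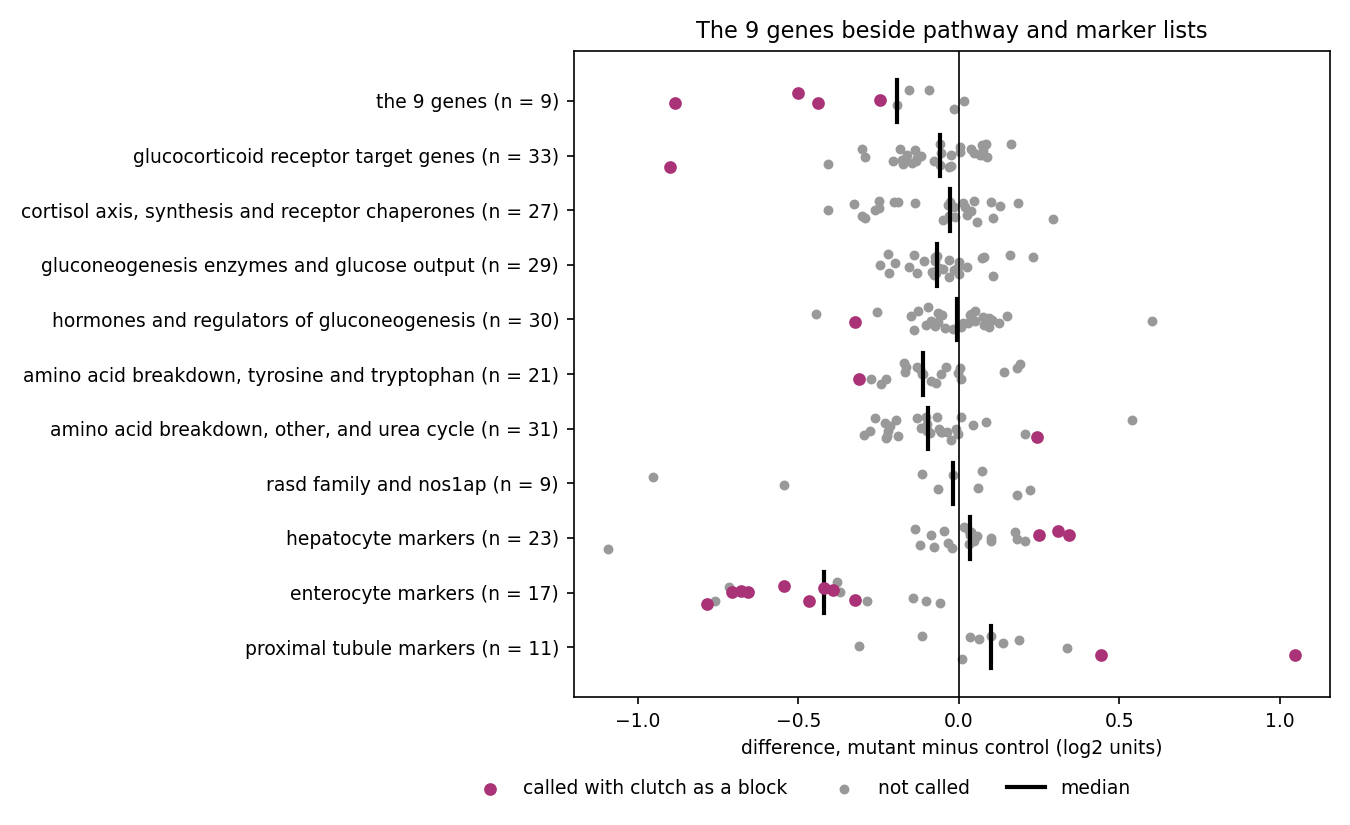
Difference between mutant and control (log2 units) of every tested gene in each plotted list, with genes called with clutch as a block in purple, the others in grey and the list median as a black bar. The exocrine pancreas (median -0.51), yolk syncytial layer and skeletal muscle markers are not plotted. The 9 genes have a median of -0.19, the pathway lists have medians between -0.11 and 0.00, and the enterocyte markers have a median of -0.42.

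Markers of the liver, where the enzymes of tat, tdo2b and pck1 are best known, were compared beside them. Of 23 measured hepatocyte markers 3 rose and 0 fell in the blocked fit, which called 2.34% of all tested genes. The 3, named after their values were seen, were c3a.1, cp and cfb (0.34, 0.31 and 0.25 log2 units). The median was 0.04 log2 units, and 8 of the 23 lay below 0, down to -1.09 for ahsg2, which was lower in 4 of 4 clutches. The clutch differences of ahsg2 were -2.52, -0.05, -0.02 and -1.78 log2 units, at a low level of 1.24 log2 CPM in controls and 0.14 in mutants. The summed level, weighted to abundant markers such as apoa2, ran from 6392 to 7510 CPM in controls and from 6701 to 7537 CPM in mutants. Within clutches 1 to 4 that sum differed by -0.04, 0.12, 0.16 and 0.02 log2 units, beside -0.58, -0.41, -0.52 and -0.49 for tat. The defining marker fabp10a, named after its values were seen, had 7.41 log2 CPM in controls and 7.32 in mutants. Its clutch differences were uneven, at -0.28, 0.28, 0.10 and -0.44 log2 units, unlike those of the sum.

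The gut and kidney of vertebrates also express pck1. Of 17 enterocyte markers 9 fell and 0 rose with the block. That fit called 1.39% of all tested genes as lower and 2.34% in either direction. The summed level of the enterocyte markers ran from 2067 to 3945 CPM in controls and from 1604 to 3253 CPM in mutants. Its clutch differences were -0.37, -0.24, -0.28 and -0.58 log2 units. The median of these 17 markers was -0.42 log2 units. In fits without a clutch term it was -0.77 when the control of clutch 1 was left out, and -0.69 and -0.70 when the mutant of clutch 2 or 3 was. It was -0.27 when the mutant of clutch 1 or 4 was left out. Such fits leave a clutch mate unpaired, so differences between clutches enter these medians. Of 11 proximal tubule markers 2 rose and 0 fell with the block, with sums of 346 to 501 CPM in controls and 373 to 543 CPM in mutants. Of 17 exocrine pancreas markers 15 fell and 0 rose with the block, with sums of 3659 to 7053 CPM in controls and 2365 to 5596 CPM in mutants. The median of these pancreas markers was -0.51 log2 units. Yolk syncytial layer markers, with 0 of 9 called in either fit (limma, with unadjusted p under 0.05 for 0 in the unblocked and 2 in the blocked fit), summed to 11860 to 15279 CPM in controls and 14430 to 15364 CPM in mutants. Of 15 skeletal muscle markers 1 fell with the block, with sums of 63876 to 69822 CPM in controls and 65829 to 68811 CPM in mutants. Their most abundant member actc1b had 14.04 log2 CPM in every library, the highest value of the data. Since the libraries were made equal in distribution, its part of the sum could not differ between genotypes. Without trend and robust moderation the blocked fit called 1 of the enterocyte markers and 0 of the hepatocyte, proximal tubule, exocrine pancreas and muscle markers. The part of these tissues in the falls of tat, tdo2b, pck1 and rasd1 was not tested.

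The authors' deposited table lists the same differences for the 9 genes to within 0.03 log2 units, with an adjusted p of 1 for each. Its unadjusted p is 0.0216 for rasd1, 0.0578 for tat, 0.186 for tdo2b and 0.48 for pck1. The fit of the 8 libraries without clutch gave an unadjusted limma p of 0.0261, 0.000675, 0.149 and 0.16 in the same order. Thus tat was under 0.05 in that fit and not in the authors' table. The mean level it gives for tat, 4.92 log2 CPM, is not the mean of the 8 libraries, which is 5.34.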

How the data were processed

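The authors deposited normalized values per library, taken to be log2 CPM with equal quantiles (lowest -5.02, highest 14.04), and a table of their own comparison with log2 fold changes, p-values and adjusted p-values per gene. The score columns deposited beside them were left aside. Reads were filtered with SOAPnuke 1.5.2 per the labels' protocols. Per the submitters' processing notes, GRCz11, HISAT2 2.0.4, Bowtie2, RSEM and limma were used, without role or order. No counts are in the tables.

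Genes with at least 0 log2 CPM in at least 4 of 8 libraries were tested, 20154 of 20409. limma 3.58.1 in R 4.3.3 was fitted with genotype, with trend and robust moderation, without a pseudocount, and again with clutch as a replicate block. Deviations from group means correlated between clutch mates, by 0.72 in clutch 1, 0.50 in clutches 2 and 3 and 0.30 in clutch 4. Among the libraries of the other genotype, 8 of 8 libraries correlated best with their clutch mate. Labels name clutches but no separate parents. The procedure was tested on simulated data. List symbols were matched to the table (272 of 296 in 13 lists, 10 of them through RefSeq synonyms). All 9 genes were described; from each pathway list the up to 3 called members with the smallest adjusted p, or the most abundant member, were named, while marker lists are given by counts and sums, and for each of the 9 the 3 genes with the highest r. The 9 genes and the lists were chosen with earlier results of these data known. Alternatives were other filters, scalings and variance settings, array weights, and leaving out each library or clutch.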

Additional observations from a re-analysis of the deposited data

How the results depend on the processing

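Without a clutch term, 0 of the 9 genes passed under any alternative. The replicate block, with clutch as the pairing, called tat (-0.50), rasd1 (-0.44), tdo2b (-0.89) and pck1 (-0.25 log2 units). In limma without trend and robust moderation the blocked fit called none of the 9 genes, with an adjusted p of 0.0695 for tat. Blocked fits added after seeing the data (median-ratio rescaling, no filter, array weights, a mean of at least 5 CPM) called tat by -0.50, -0.50, -0.49 and -0.50, rasd1 by -0.44, -0.44, -0.41 and -0.44 and pck1 by -0.25 in each. tdo2b was called without a filter (-0.89) and with array weights (-0.88), was not called with rescaling, and fell below the filter of 5 CPM. Leaving out clutch 1, 2, 3 or 4, the blocked fit called tat in each case, pck1 without clutch 1 or 3, tdo2b without clutch 1 and rasd1 in none. Over all fits without a library or clutch, tat ran from -0.57 to -0.44, tdo2b from -1.24 to -0.52 and pck1 from -0.38 to -0.12 log2 units. The uncalled fkbp5 ran from -0.24 to 0.16, klf9 from -0.37 to -0.00076, hsd11b2 from -0.21 to -0.047 and nr3c1 from -0.037 to 0.088. A fit without a clutch term that leaves out 1 library leaves its clutch mate unpaired, so differences between clutches enter these ranges. Over the blocked fits fkbp5 ran from -0.065 to 0.021, klf9 from -0.25 to -0.14, hsd11b2 from -0.21 to -0.047 and nr3c1 from -0.023 to 0.036. With array weights nr3c1 had -0.0069, and the cause was not tested.

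Calls over all genes numbered 15 without the block, 472 with it, 50 with it but without trend and robust moderation, 7 at a mean of at least 5 CPM and 41 with array weights. The added blocked fits gave 434, 463, 513 and 360 in the order above, and fits without a library or clutch gave 0 to 447. Without the block they gave 9 when either library of clutch 2 was left out, 8 and 7 when the mutant library of clutch 3 or of clutch 4 was, and 25, 1, 1 and 0 when clutches 1 to 4 were left out in turn; with it they gave 419, 235, 447 and 178 without clutches 1 to 4. In the blocked fit without trend and robust moderation mt2 kept its call (adjusted p = 0.0289), hpdb, irs2a and bhmt lost theirs, 1 of 17 enterocyte markers was called, and 0 of the exocrine pancreas (15 with moderation), hepatocyte (3), proximal tubule (2) and muscle markers (1) were. With array weights the enterocyte median was -0.61. Depth is unknown, so the precision of the low tdo2b values is too.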

Other observations

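The genes gck and hsd11b1la lay on 1 side in 4 of 4 clutches without passing in either fit, and both were named after their values were seen, as was nr3c2. The glucokinase gene gck, whose enzyme traps glucose in liver cells, was higher in each mutant, at 3.44, 3.75, 3.39 and 3.77 log2 CPM in the controls and 4.86, 3.97, 3.75 and 4.18 in the mutants of clutches 1 to 4 (difference 0.60 log2 units, limma adjusted p = 1, and 0.336 with clutch as a block). The groups overlapped, since the mutant of clutch 3 lay just below the controls of clutches 2 and 4. The gene hsd11b1la, a relative of the cortisol converting dehydrogenases, ran from 4.51 to 4.68 in controls and from 4.19 to 4.40 log2 CPM in mutants without overlap (difference -0.25 log2 units, limma adjusted p = 1, and 0.0892 with the block). Such a separation in this direction was shown by 1.05% of all tested genes. Since hsd11b1la was named after its values were seen, its separation is no independent result. The mineralocorticoid receptor gene nr3c2, whose protein also binds cortisol, ran from 2.65 to 3.55 in controls and from 2.69 to 3.43 log2 CPM in mutants (-0.14 log2 units, blocked limma adjusted p = 0.627), with clutch 1 the lowest in both genotypes and mutants lower in 2 of 4 clutches.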
